A study of Homo sapiens with 79 samples.

Results

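The HOX transcripts comprised every gene of the deposited table whose symbol starts with HOXA, HOXB, HOXC or HOXD followed by a digit or by -AS, together with the lncRNAs HOTAIR, HOTTIP and HOTAIRM1. This gave 57 of the 48453 genes in the table, of which 17 belong to the HOXA cluster, 15 to HOXB, 14 to HOXC and 11 to HOXD. By symbol, 39 are mRNA genes and 18 are lncRNA genes, although GENCODE 44 lists HOXB-AS5 as a protein coding gene. They were measured by fRIP-Seq (formaldehyde RNA immunoprecipitation) in K562, an established human erythroleukemia cell line that was neither genetically altered nor treated in any of the groups. Living cells were lightly cross-linked with formaldehyde and lysed by sonication, the lysate was incubated with an antibody against a single protein, and the RNA recovered with that protein was sequenced beside input RNA from lysate. The targets were 24 proteins. Of these, HNRNPH1, HNRNPU, PABP, IMP1, HUR and ADAR are RNA binding proteins, and EZH2, SUZ12, DNMT1, HDAC1, LSD1, CBP, PCAF, PHF8, RBBP5, WDR5, CHD1, CHD4, CHD7, CTCF, STAG2, NUP98, CBX3 and its modified form phospho-CBX3 are chromatin-associated proteins. EZH2 and STAG2 had 2 libraries each, the other 22 proteins had 3 each, and 9 input libraries came in 3 sets of 3. Replicates were separate biological preparations of this cell line, and STAG2, a cohesin subunit, was included as a control for background recovery of RNA.

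HOX genes encode homeodomain transcription factors that set positional identity along the body axis and take part in blood cell differentiation. They lie in 4 clusters, within which neighbouring genes share a direction of transcription and antisense lncRNAs are interleaved with the coding genes. Polycomb repressive complex 2 (PRC2), in which EZH2 is the methyltransferase and SUZ12 a core subunit needed for activity, methylates histone H3 and is a well known repressor of these clusters. HOTAIR, transcribed from the HOXC cluster, was proposed to guide PRC2, HOTTIP from the HOXA cluster to bind WDR5, and HOTAIRM1 is a myeloid lncRNA of the HOXA cluster. PRC2 binds many RNAs in vitro with a preference for G-rich stretches, and HNRNPH1 is a splicing factor that recognises runs of G.

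Stretches of the HOXB members on which the EZH2 and SUZ12 results turn are shown for this reason. Each is the 30 base window of the member's leading isoform in input, within the coding part for an mRNA, that holds the most bases in runs of at least 3 G, with those runs in capitals, on GRCh37 (hg19) as annotated by GENCODE 44 lifted to that build. HOXB8 (chr17:46691696-46691725), HOXB9 (chr17:46703237-46703266) and HOXB7 (chr17:46688090-46688119) are read from the minus strand and lie in coding exons. HOXB-AS4 (chr17:46711998-46712027), HOXB-AS1 (chr17:46623050-46623079) and HOXB-AS2 (chr17:46637519-46637548) are read from the plus strand and lie in lncRNA exons.
HOXB8: cgccagcggcctGGGcgaggaggccgaGGG
HOXB9: GGGcgcgcctGGGGagctgctcaaacaGGG
HOXB7: gatgcaGGGcttgtaccccggcGGGGGGGG
HOXB-AS4: aggcctgaaGGGGGctgattGGGccGGGGG
HOXB-AS1: gtgagatggagcataaGGGGcatttttGGG
HOXB-AS2: GGGctgcaGGGGGtgctGGGaaaGGGaGGG
When the window of every gene tested was chosen by the same rule (24159 genes), 1.44% of genes held at least the 17 bases in G runs of HOXB-AS2, 9.33% the 13 of HOXB-AS4, 19.5% the 11 of HOXB7 and 28.1% the 10 of HOXB9. The windows of HOXB-AS1 with 7 bases and HOXB8 with 6 were reached by 60.8% and 77.6% of genes, so that a window of this kind is common. HOXB-AS2, with 5 runs in its window, also had the densest runs over its whole 845 base isoform, 32.0 per kb, and HOXB-AS1 the sparsest of the 19 members tested, 10.3 per kb. A run of G is a description of the letters and not a binding site.

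Depth, read from what 1 fragment adds to the FPKM (fragments mapped to a transcript, scaled by its length and the library's depth) of single isoform genes, was 11.3 to 29.1 M (mega) fragments in the input libraries, 8.69 to 12.1 M for EZH2, 20.1 to 23.6 M for SUZ12 and 1.83 to 2.18 M for ADAR, the shallowest. It could be read in 78 of the 79 libraries. In the exception, STAG2 replicate 1, only 28.6% of low values were whole multiples of the step, and this library also stood apart in the silent clusters described at the end. Of 10 erythroid markers, 9 were at 1 FPKM or more in every input library, and the markers CD3E, MS4A1, CD14, COL1A1 and ALB of other cell types each had an input mean below 1 FPKM.

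In input, HOX RNA of K562 was HOXB RNA. The HOXB members summed to 124.5 ± 20.5 FPKM (SD, n = 9), 91.2% of the sum over all 57 members, against 11.4 FPKM for HOXC and 0.123 and 0.127 FPKM for HOXA and HOXD. HOXB9 alone ranged from 35.3 to 87.4 FPKM with a median of 64.5, and it made up 51.5% of the HOXB sum. HOXB4, HOXB7, HOXB2 and HOXB8 followed with means of 11.7 ± 1.49, 9.69 ± 1.25, 8.79 ± 1.94 and 7.78 ± 2.80 FPKM. Only HOXB9 had a range apart from that of the next member, so the order of other members adjacent in level is not resolved by these libraries.

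The antisense lncRNA HOXB-AS1, which overlaps parts of HOXB2 and HOXB3 on the opposite strand, had 7.06 ± 1.70 FPKM in input, and HOXC9, the most abundant HOXC member, 6.09 ± 1.13. HOXB6 and HOXB3 had 5.06 ± 1.49 and 4.64 ± 1.11 FPKM. HOXB-AS2 (2.25 ± 0.995), HOXC-AS1 (2.09 ± 0.737), HOXB-AS4 (1.71 ± 0.765) and HOXC6 (1.12 ± 0.382 FPKM) completed the 13 members with a mean of at least 1 FPKM, 10 of them in HOXB and 3 in HOXC. FPKM is a level per transcript length, and in bulk libraries fewer cells with a transcript cannot be told apart from less of it in each cell.

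**Figure D1:**
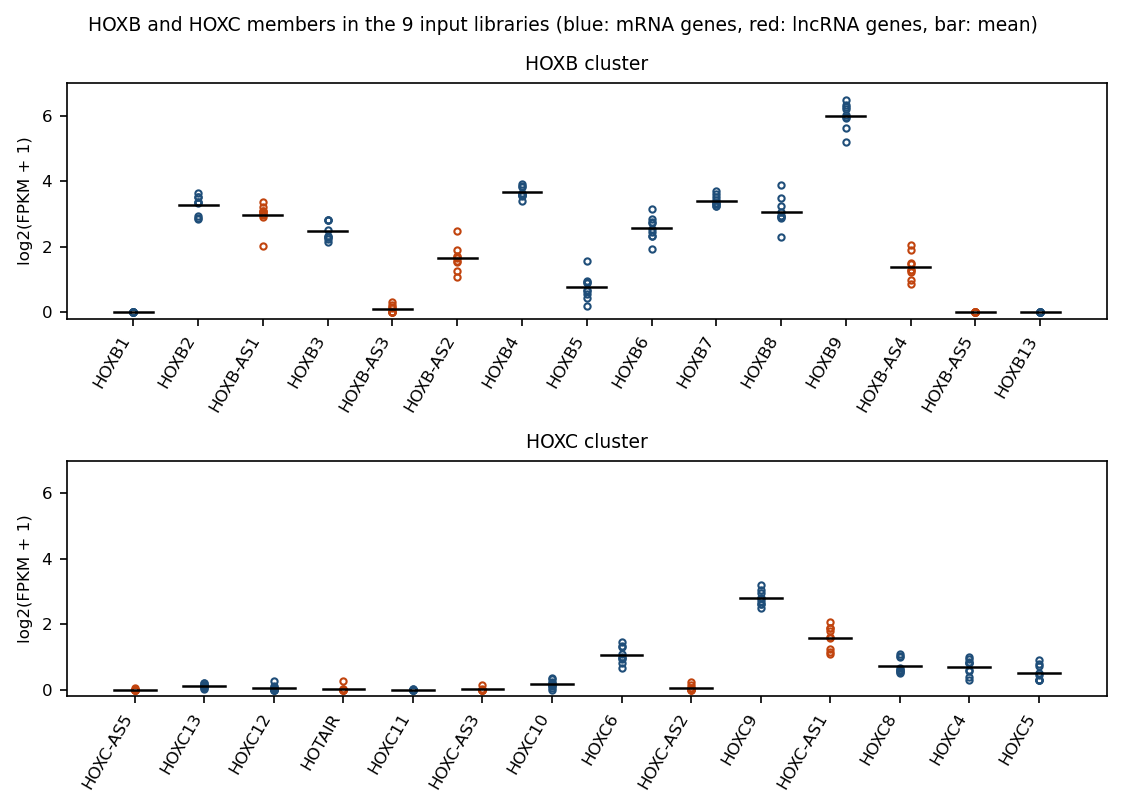
HOXB and HOXC members along their clusters in the 9 input libraries. The x axis gives the members in chromosome order and the y axis log2(FPKM + 1), circles are libraries (blue for mRNA genes, red for lncRNA genes, by symbol) and bars are means. The highest points are those of HOXB9, and of the 13 members with a mean of at least 1 FPKM 10 lie in HOXB and 3 in HOXC.

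Comparisons used log2(FPKM + 1) and 1 limma fit over 25442 genes, those that reached 1 FPKM in 2 or more of the 79 libraries. A call needed an adjusted p under 0.05 and more than a 2-fold change, and called members are termed enriched or depleted. The filter was passed by 19 members, 12 of HOXB, 6 of HOXC, HOTAIRM1 alone of HOXA and none of HOXD. HOTAIRM1 passed through HNRNPH1 replicate 1 (6.47 FPKM) and WDR5 replicate 1 (2.00 FPKM), and HOXB-AS3 through HNRNPH1 replicates 2 and 3 and HDAC1 replicate 1 (2.11, 2.55 and 1.05 FPKM). HOTAIRM1, HOXB-AS3, HOXB5, HOXC4, HOXC5 and HOXC8 had input means under 1 FPKM. On log2(FPKM + 1) they could not be called depleted against the 9 inputs, even at 0. Every comparison with input shares the same 9 input libraries, so results for different proteins are not independent of one another.

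Which HOX RNAs are recovered with the methyltransferase of PRC2 is asked by EZH2 fRIP against input. In the HOXB cluster HOXB8, HOXB-AS4, HOXB9 and HOXB7 were enriched, which are 4 neighbours within 27.7 kb (chr17:46684594-46712294), and in the HOXC cluster HOXC9. HOXB-AS5 and HOXB13, which lie beyond HOXB-AS4, did not pass the filter. These are 5 of 19 members enriched, where 10.5% of all genes tested were, and HOXB-AS2 was the only member depleted, where 9.13% of all genes were. HOXB8 read 48.6 and 45.7 FPKM in the EZH2 libraries, with input at 3.87, 6.73 and 13.7 FPKM (lowest, median, highest). Both EZH2 values lay far above all 9 input values, at a log2 fold change of 2.52 ± 0.29 (SE, limma adjusted p = 8.25e-11). An estimated 865 to 1279 fragments stood behind HOXB8 in EZH2 and 219 to 470 in input. Both take the length of its leading isoform in input, and are too high where shorter isoforms hold part of the level.

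HOXB-AS4, a lncRNA upstream of HOXB9 on the opposite strand, read 8.46 and 14.8 FPKM with EZH2 and 0.809, 1.44 and 3.13 FPKM (lowest, median, highest) in input. The groups did not overlap, and its log2 fold change was 2.22 ± 0.38 (limma adjusted p = 2.03e-06), although the counts were low, with 58 to 73 estimated fragments for HOXB-AS4 in EZH2 and 8 to 38 in input. HOXB9 read 165.9 and 191.3 FPKM, above an input range of 35.3 to 87.4 FPKM, with a log2 fold change of 1.49 ± 0.23 (limma adjusted p = 2.89e-07). HOXB7 read 16.6 and 26.9 FPKM against 8.50 to 11.9 FPKM in input, and its log2 fold change of 1.06 ± 0.17 was just past the 2-fold limit. HOXC9 read 12.1 and 15.01 FPKM against 4.61 to 8.16 FPKM, a log2 fold change of 1.04 ± 0.27. Both HOXB7 and HOXC9 were above every input library, yet their calls rested on EZH2 replicate 2, without which the log2 fold changes were 0.73 and 0.90 and the count of enriched members 3. HOXB7 was at 0.90 against the input set of EZH2 alone, and HOXC9 at 0.99 with a replicate block.

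The depleted member, HOXB-AS2, is an antisense lncRNA within the span of HOXB3, whose exons it does not overlap. It was listed at 0 in EZH2 replicate 1 and at 0.317 FPKM in replicate 2, where input held 1.10, 2.16 and 4.56 FPKM (lowest, median, highest). Both EZH2 libraries lay below all 9 inputs, at a log2 fold change of -1.45 ± 0.27 (limma adjusted p = 8.89e-06), with 0 to 2 estimated fragments for HOXB-AS2 in EZH2 and 10 to 83 in input. For each of these 6 members the exact two-sided permutation test of 2 against 9 libraries gave p = 0.0182, the smallest this design allows. The test and the lack of overlap rest on the same values as the calls, so neither is separate support, here or below.

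The rest of the expressed HOXB cluster was not called with EZH2. HOXB2, HOXB3, HOXB5 and HOXB6 overlapped input, with log2 fold changes of 0.26, 0.24, 0.20 and 0.59, and HOXB4 at 0.38 passed the adjusted p alone (0.0214, limma). HOXB-AS1 read 5.83 and 2.95 FPKM, a log2 fold change of -0.60 (limma adjusted p = 0.0760). In HOXC, HOXC6 (0.55) and HOXC-AS1 (0.34) were not called, although HOXC6 was at 1.24 and called without EZH2 replicate 1. Where either EZH2 library was left out the other stood alone, and its spread was assumed to be that of the other groups. Over the 19 members the median log2 fold change was 0.26, and over all genes tested -0.13.

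**Figure D2:**
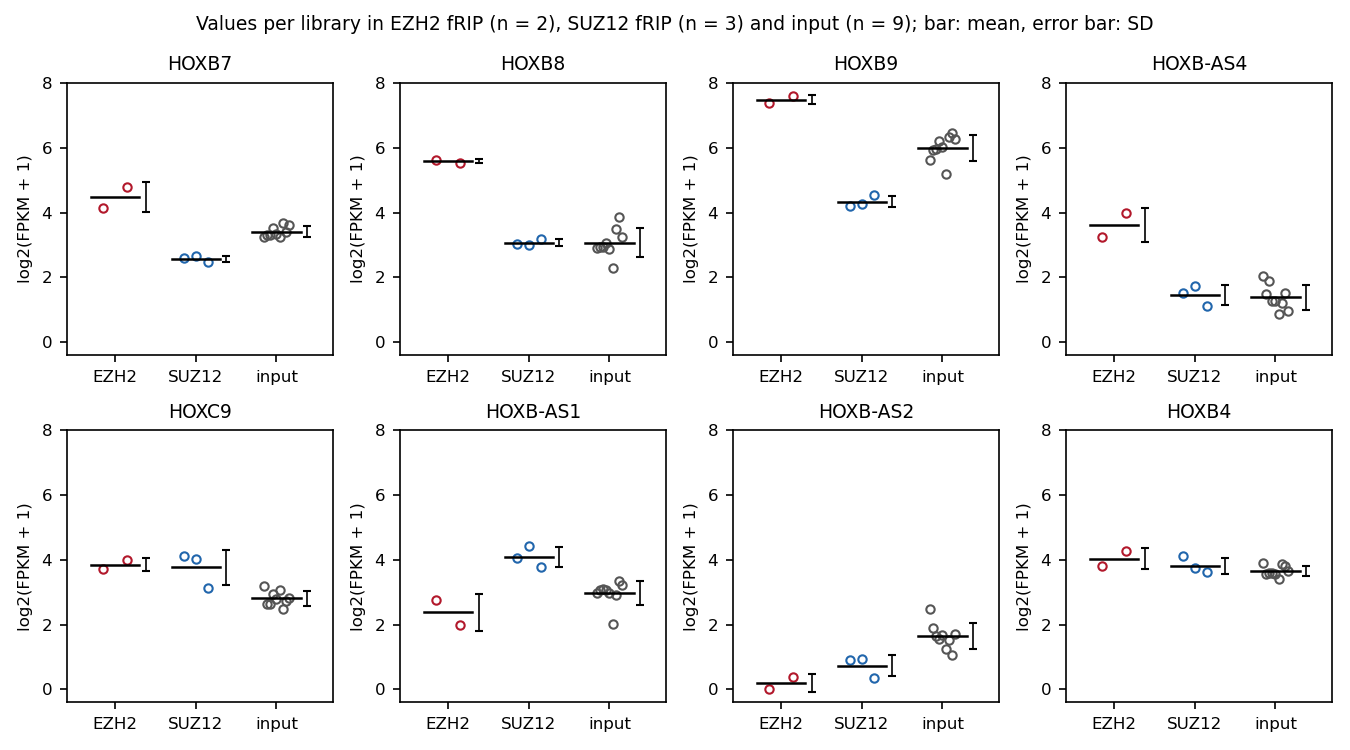
Values of 8 HOX members per library in EZH2 fRIP (2 libraries), SUZ12 fRIP (3) and input (9). The y axis is log2(FPKM + 1), circles are libraries, horizontal bars group means and the bars beside them the SD. HOXB7, HOXB8, HOXB9 and HOXB-AS4 are highest with EZH2, HOXB-AS1 is highest with SUZ12, and HOXB-AS2 is lowest with EZH2.

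The isoforms of HOXB7 were recovered with EZH2 in other proportions than in input. In the deposited isoform estimates, given here without a test, the leading HOXB7 isoform (ENST00000239165) was at 8.95 ± 0.43 FPKM with EZH2 (n = 2) and 5.44 to 9.45 FPKM in input, so that the groups overlapped. An isoform without a defined coding part that starts upstream of HOXB9 (ENST00000567101) was at 4.92 and 12.1 FPKM with EZH2 and at 1.10 to 1.97 FPKM in input. A noncoding isoform that the deposited table counts in HOXB7 and GENCODE 44 in another gene (ENST00000433510) was at 3.49 FPKM with EZH2 and 1.02 FPKM in input. The leading isoform of HOXB7 thus held 41.1% of the gene's level with EZH2 and 73.9% in input. With PABP and CHD4, in which HOXB7 was also enriched, that share was 86.5% and 93.6%, and the mRNA isoform itself was at 32.2 and 27.9 FPKM. For HOXB8 the picture differed: the leading mRNA isoform (ENST00000239144) was at 17.1 ± 2.12 FPKM with EZH2, above its input range of 1.90 to 5.84 FPKM, and a shorter coding isoform (ENST00000576562) at 16.7 ± 3.90 FPKM against 2.34 FPKM in input.

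SUZ12 fRIP against input asks the same of the other PRC2 subunit, and its pattern in HOXB was a different one. HOXB-AS1 was the enriched member and HOXB9 the depleted one. These are 1 of 19 members enriched, where 15.3% of all genes were, and 1 of 19 depleted, where 8.6% of all genes were. HOXB-AS1 read 15.7, 20.4 and 12.8 FPKM in the SUZ12 libraries and 3.08, 7.42 and 9.24 FPKM (lowest, median, highest) in input. All 3 SUZ12 libraries were above every input, at a log2 fold change of 1.12 ± 0.23 (limma adjusted p = 4.97e-05). The call was lost without SUZ12 replicate 2 (0.95) or without input set 2 replicate 3 (1.00), the input library with the least HOXB-AS1. HOXB9 read 17.5, 18.2 and 22.2 FPKM, all below the lowest input value of 35.3, at a log2 fold change of -1.66 ± 0.20 (limma adjusted p = 1.08e-10). The exact permutation p was 0.00455 for each, the smallest that 3 against 9 libraries allow.

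Several members differed from input with SUZ12 by less than 2-fold. HOXC9 read 16.3, 15.4 and 7.85 FPKM, a log2 fold change of 0.96 (limma adjusted p = 0.000291), with replicate 3 inside the input range. HOXB3, whose exons partly overlap HOXB-AS1 on the other strand, had a log2 fold change of 0.78 with all 3 libraries above input. HOXB7 read 5.02, 5.34 and 4.53 FPKM and HOXB-AS2 0.862, 0.910 and 0.276 FPKM, all below every input, at log2 fold changes of -0.84 and -0.92, and HOXB-AS2 was called depleted (-1.29) against the input set of SUZ12 alone. HOXB8 (7.21, 6.97 and 8.11 FPKM) and HOXB-AS4 (1.86, 2.29 and 1.16 FPKM), the members most enriched with EZH2, lay within their input ranges with SUZ12, at log2 fold changes of -0.00 and 0.06.

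Tested directly, SUZ12 against EZH2, 5 members differed. HOXB9 (-3.15 ± 0.27), HOXB8 (-2.52 ± 0.34), HOXB-AS4 (-2.16 ± 0.44) and HOXB7 (-1.90 ± 0.20) were lower with SUZ12 and HOXB-AS1 was higher (1.71 ± 0.32, log2 difference ± SE). That is 4 of 19 members lower, where 13.1% of all genes were, and 1 of 19 higher, where 18.5% were. The limma adjusted p ranged from 1.77e-15 for HOXB9 to 3.73e-05 for HOXB-AS4. For all 5 the 3 SUZ12 and 2 EZH2 libraries did not overlap, and the exact permutation p was 0.1, the smallest possible for 3 against 2, so that this test alone cannot pass 0.05. HOXC9 differed by -0.09 and was not called. The direct test uses no input, and EZH2 was matched to input set 3 and SUZ12 to set 1. These sets had means of 80.9 and 56.6 FPKM for HOXB9 and of 10.8 and 6.66 FPKM for HOXB8. Protein and lysate set thus cannot be told apart in this test. With each protein taken against its matched input set, none of the 5 calls was lost. The HOXB sum was 304.6 ± 26.9 FPKM with EZH2 (n = 2) and 86.7 ± 8.38 FPKM with SUZ12 (n = 3), and HOXB9 made up 58.6% and 22.6% of it.

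**Figure D3:**
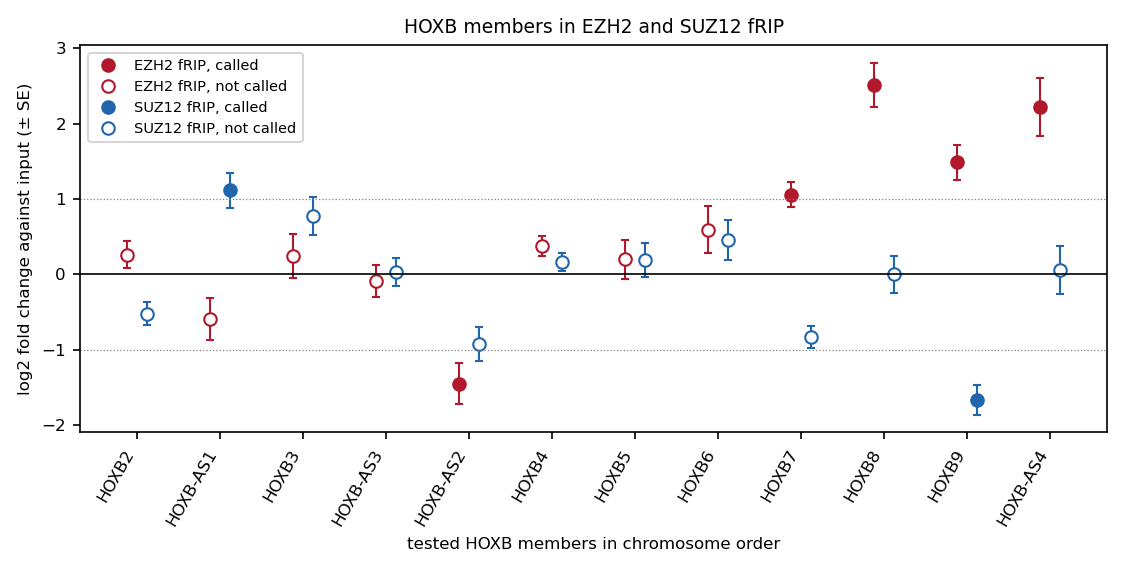
Log2 fold change against input, with SE, of the 12 tested HOXB members in chromosome order for EZH2 fRIP (red) and SUZ12 fRIP (blue). Filled circles are called, dotted lines mark 2-fold, and both series share the 9 input libraries. HOXB7 to HOXB-AS4 lie between 1.06 and 2.52 for EZH2 and between -1.66 and 0.06 for SUZ12.

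Among 35 other genes tied to the HOX system (cofactors of HOX proteins, regulators of the clusters and genes flanking them), 27 were tested. With EZH2, 5 of the 27 were enriched and none depleted by limma, where 10.5% and 9.13% of all genes were, and with SUZ12 12 of the 27 were enriched and none depleted, where 15.3% and 8.6% of all genes were. Of the cofactors, which bind DNA together with HOX proteins, MEIS2 was enriched with both (1.71 with EZH2, 1.18 with SUZ12), PBX2 with EZH2 (1.39), and MEIS1 (1.08), PBX4 (1.34) and PKNOX1 (1.68) with SUZ12. Of the regulators, the mRNAs of the PRC2 subunits SUZ12 (1.56), EED (1.01) and EZH1 (1.87) were enriched with SUZ12 and EZH2 mRNA with both (1.49 with EZH2, 1.66 with SUZ12). KMT2A (1.26) and DOT1L (1.18), which encode histone methyltransferases active at HOX genes, were enriched with SUZ12, and CBX2, a Polycomb reader, with EZH2 (1.96). Of the flanking genes, SMUG1 beside HOXC was enriched with EZH2 (1.09), and SKAP2 beside HOXA (1.38) and CALCOCO1 beside HOXC (2.55) with SUZ12. Tested between both, 8 of the 27 were higher with SUZ12 and 3 lower, where 18.5% and 13.1% of all genes were. The 3 lower ones were CBX2 (-2.58), SMUG1 (-1.37) and MTX2 (-1.01). In alternatives added after the data were seen, the counts with EZH2 rose to 7 enriched with centred libraries and 6 with a replicate block. The block and each pseudocount, 0.1 and 0.5 FPKM, gave 1 depleted with EZH2. With SUZ12 13 were enriched at a pseudocount of 0.1 FPKM, and 5 were lower with SUZ12 than EZH2 with centred libraries. Calls were lost for 5 of these genes. SMUG1 with EZH2 was lost without EZH2 replicate 2 (0.90) and against the input set of EZH2 alone (0.97), MEIS1 with SUZ12 without SUZ12 replicate 1 (0.95) and KMT2A with SUZ12 against the input set of SUZ12 alone (0.99). EED with SUZ12 was lost without SUZ12 replicate 3 (0.90), with centred libraries (0.98) and without any 1 of 4 input libraries (0.96 to 0.99). Between SUZ12 and EZH2, EED (1.03) was lost without EZH2 replicate 2 (0.84), without SUZ12 replicate 3 (0.92), with centred libraries (0.84) and with a replicate block (0.96). KMT2A (1.33) was lost there against the matched input sets (0.95), and MTX2 without EZH2 replicate 1 (-0.76), without SUZ12 replicate 1 (-0.99) or 2 (-0.94) and against the matched input sets (-0.33).

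Across the other 22 fRIPs, 39 of 418 pairs of a tested member and a protein were enriched and 9 depleted, where 6.35% and 5.21% of pairs over all genes were. By cluster these were 29 enriched and 9 depleted of 264 pairs for HOXB, 10 enriched and none depleted of 132 for HOXC, and none of 22 for HOTAIRM1, the HOXA member. HOTAIRM1, HOXC4, HOXC5 and HOXC8 were too low in input to be called depleted, so the lack of such pairs is no result for them. Centring the libraries on their medians gave 42 enriched and 18 depleted, where 6.4% and 6.48% of pairs over all genes were.

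HNRNPH1 recovered the most HOX RNA of the panel. With this splicing factor 16 of 19 members were enriched, where 24.5% of all genes were, and 15 of 17 without HOTAIRM1 and HOXB-AS3, which would not have passed the filter without its libraries. No member was depleted, where 7.9% of all genes were. HOXB6 read 64.8, 54.0 and 36.5 FPKM against 2.82 to 7.91 FPKM in input, a log2 fold change of 3.12 ± 0.27. HOXB3 (65.7, 45.7 and 32.9 FPKM, 3.09 ± 0.25) and HOXB-AS2 (32.2, 29.3 and 14.8 FPKM, 3.00 ± 0.23) followed, with every HNRNPH1 library above every input. The HOXB sum was 605 ± 21.0 FPKM and the HOXC sum 64.9 FPKM (n = 3). The members not called were HOXB2 (0.82), HOXB7 (0.89) and HOTAIRM1 (0.99), and the lowest called was HOXB-AS3 (1.07), which was lost without HNRNPH1 replicate 2 (0.83) or 3 (0.73), as was HOXC4 (1.09) without replicate 2 (0.95). The median over members was 2.10 and over all genes 0.34. With centred libraries, in which the median over all genes was -0.40, 11 members were enriched, where 8.59% of all genes were. Against the input set of HNRNPH1 alone all 19 were, where 19.8% of all genes were. Without HOTAIRM1 and HOXB-AS3, which needed the HNRNPH1 libraries to pass the filter, this was 17 of 17.

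HNRNPH1 recovered HOXB6 mainly as a 468 base isoform without a defined coding part (ENST00000490419). It held 77.5% of the HOXB6 level with HNRNPH1, 52.1% in input and 26.2% with EZH2, as estimates and without a test. In HOXB3 an isoform of 466 bases without a coding part (ENST00000552000) was at 37.7 FPKM with HNRNPH1 and 2.15 FPKM in input, while the mRNA isoform (ENST00000470495) was at 9.88 and 2.41 FPKM. HOXB6 shares 32.9% of its exonic bases with other genes of the table, and the library kit and counting were not described as strand specific, so RNA of such overlapping genes cannot be told apart.

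HNRNPU, a nuclear scaffold protein that binds RNA, enriched 6 of 19 members, where 13.1% of all genes were enriched and 2.52% depleted. HOXC8 was highest with 6.88, 6.50 and 3.22 FPKM against 0.440 to 1.16 FPKM in input (log2 fold change 1.91 ± 0.16), followed by HOXB-AS2 (1.87), HOXB6 (1.78), HOXB-AS4 (1.51), HOXB5 (1.31) and HOXC5 (1.05), and HOXB2 was lowest (-0.90, not called). With centred libraries 3 members were enriched and 2 depleted, where 4.66% and 13.7% of all genes were. Against the input set of HNRNPU alone 4 were enriched, where 8.21% of all genes were, and HOXC5 was lost without HNRNPU replicate 1 (0.99) or 2 (0.90). HUR, which stabilises mRNAs, enriched HOXB-AS2 alone (7.53, 4.83 and 6.13 FPKM, 1.17 ± 0.23), where 6.42% of all genes were enriched and 6.93% depleted.

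PABP, which binds the poly(A) tail of mRNAs, enriched 4 members, all coding, where 11.1% of all genes were. HOXB7 read 33.9, 36.4 and 41.4 FPKM, all above the input range of 8.50 to 11.9 FPKM, at a log2 fold change of 1.84 ± 0.15, and HOXB9 (1.62), HOXB2 (1.40) and HOXB8 (1.06) followed. HOXB8 was at 0.60 against the input set of PABP alone and at 0.96 without input set 2 replicate 3. HOXB-AS2 was depleted (-1.52), where 14.7% of all genes were. Centred libraries gave 8 enriched members, where 20.9% of all genes were. IMP1, an mRNA binding protein of the cytoplasm, enriched HOXB9 alone (159.3, 140.3 and 153.1 FPKM, 1.25 ± 0.20), where 4.23% of all genes were enriched, and HOXB9 made up 77.3% of its HOXB sum. ADAR, the RNA editing enzyme, enriched no member by limma, where 26.6% of all genes were, and depleted HOXB-AS4 (-1.04), where 4.31% were. HOXB-AS4 was listed at 0 in ADAR replicates 1 and 2 and at 1.08 FPKM in replicate 3, inside the input range, at a depth that put 0 to 1 fragment behind it. The HOXB-AS4 call was lost without either of these libraries at 0 (-0.86 in both cases) or without input set 1 replicate 1 (-0.96) or 3 (-0.98). With centred libraries, in which the ADAR median over all genes was -0.69 in place of 0.29, 13 members were depleted, where 35.2% of all genes were.

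HOXB-AS1 was enriched in 6 of the 24 fRIPs. CBP, an acetyltransferase and transcriptional coactivator, had the largest value after HNRNPH1, with 29.0, 29.5 and 30.1 FPKM against 3.08 to 9.24 FPKM in input (1.96 ± 0.23), and enriched no other member, where 9.08% of all genes were enriched and 3.78% depleted. Centred libraries gave 3 enriched members for CBP, where 10.4% of all genes were. With CBX3, a heterochromatin protein, HOXB-AS1 (20.8, 29.1 and 17.0 FPKM, 1.54 ± 0.23), HOXB3 (1.16) and HOXC9 (1.01) were enriched, where 7.45% of all genes were and 3.65% were depleted. Against the input set of CBX3 alone HOXB3 (0.98) and HOXC9 (1.00) were not called, and HOXC9 was lost without CBX3 replicate 2 (0.90), without any 1 of 4 input libraries (0.97 to 0.99) or with centred libraries (0.87). PHF8, a histone demethylase, enriched HOXB-AS1 (22.9, 14.9 and 14.0 FPKM, 1.19 ± 0.23), where 3.18% of all genes were enriched and 1.71% depleted, and the call was lost without PHF8 replicate 1 (0.98), with centred libraries (0.96) and against its input set alone (0.99). DNMT1, the maintenance DNA methyltransferase, enriched HOXB8 (1.08), HOXB-AS1 (1.08), HOXC9 (1.04) and HOXB9 (1.04), where 9.56% of all genes were. All 4 were near the 2-fold limit, and leaving out 1 library left 1 to 4 of them called. Without input set 2 replicate 3 HOXB8 (0.98), HOXB-AS1 (0.96) and HOXB9 (0.93) were not called, without DNMT1 replicate 2 neither were HOXB-AS1 (0.86), HOXC9 (0.97) and HOXB9 (0.99), without replicate 1 HOXC9 (0.88), without replicate 3 HOXB9 (0.97), without input set 1 replicate 1 HOXB9 (0.99) and without input set 3 replicate 1 HOXC9 (1.00). Against the input set of DNMT1 alone HOXB-AS1 (0.99) was not called.

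CHD4, a remodeller of the NuRD complex, enriched HOXB7 (24.8, 37.3 and 27.2 FPKM against 8.50 to 11.9 FPKM in input, 1.51 ± 0.15) where only 2.91% of all genes were enriched. HDAC1, a histone deacetylase, enriched HOXB6 (14.4, 8.98 and 10.1 FPKM, 1.02 ± 0.27), where 8.42% of all genes were enriched and 5.35% depleted, and the call was lost without HDAC1 replicate 1 (0.84), without 1 of 3 input libraries (0.94 to 0.99), with centred libraries (0.73) and against its input set alone (0.81). Over all members, leaving out 1 library gave 0 to 3 enriched with HDAC1. For LSD1, NUP98, PCAF and WDR5 no member was enriched by limma, where 0.814%, 0.263%, 0.515% and 3.9% of all genes were, and with centred libraries WDR5 had 6 enriched members, where 9.52% of all genes were. Leaving out 1 library gave 0 to 1 enriched member with NUP98 and 0 to 2 with WDR5. Against the input set of WDR5 alone HOXB8 (1.16) and HOXB-AS4 (1.09) were enriched with it, where 3.43% of all genes were, and in a fit restricted to that set and its fRIPs, added after the data were seen, so was HOXB-AS4 with NUP98 (1.05). In 6 fRIPs no member was called by limma: CHD1 (0.424% of all genes enriched, 1.0% depleted), CHD7 (0.99% and 0.896%), CTCF (0.424% and 0.79%), phospho-CBX3 (2.58% and 2.91%), RBBP5 (2.28% and 0.731%) and STAG2 (0.979% and 3.36%). At an unadjusted p under 0.05 these had 1, 4, 4, 6, 2 and 2 of the 19 members, where 23.2%, 24.3%, 25.5%, 35.3%, 31.3% and 26.3% of all genes passed. With CHD7, leaving out 1 library gave 0 to 1 enriched member.

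**Figure D4:**
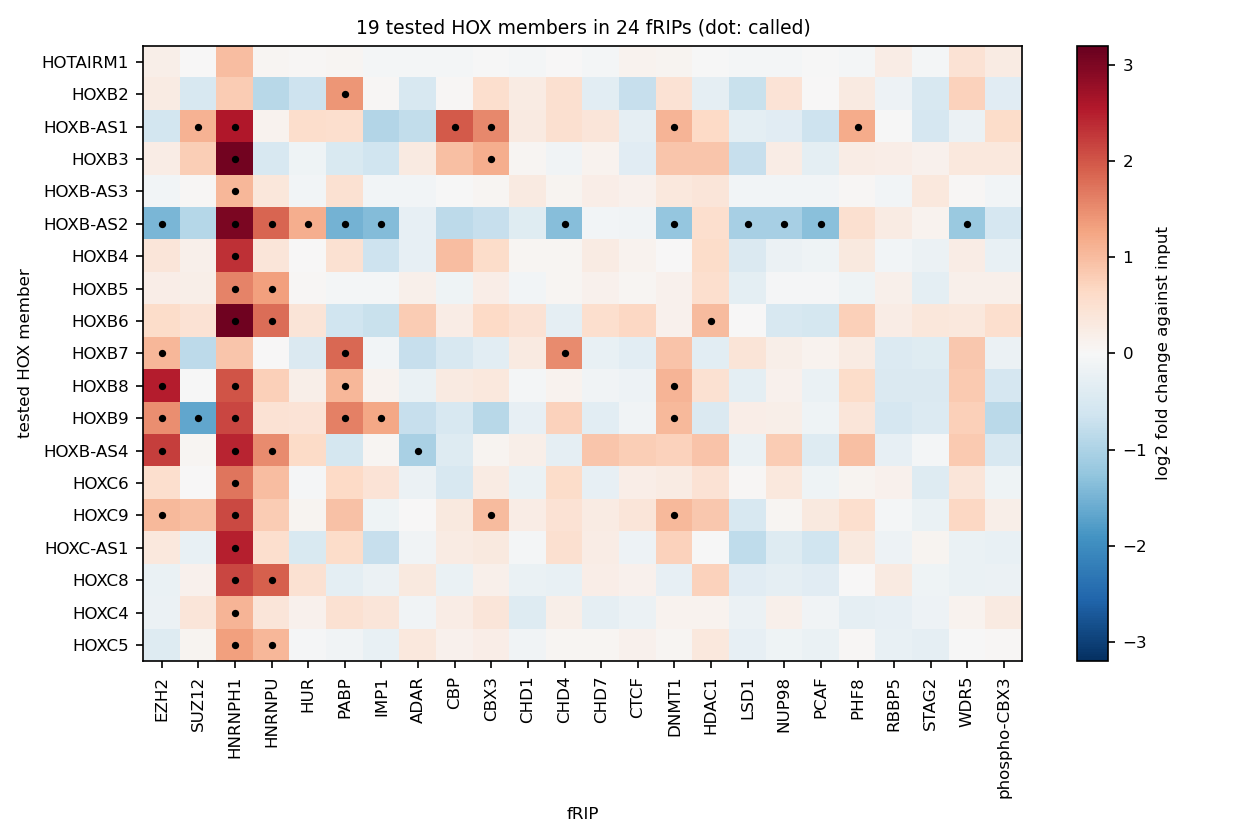
Log2 fold change against input (colour) of the 19 tested members (y axis) in the 24 fRIPs (x axis), with a dot where the member was called. HNRNPH1 has the most calls (16), and the HOXB-AS2 line holds both enriched (3) and depleted (9) fRIPs.

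HOXB-AS2 was the member called in the most fRIPs, enriched in 3 and depleted in 9 of 24. It was enriched with HNRNPH1 (3.00), HNRNPU (1.87) and HUR (1.17), and depleted with PABP (-1.52), EZH2 (-1.45), IMP1 (-1.38), CHD4 (-1.37), PCAF (-1.35), DNMT1 (-1.24), WDR5 (-1.19), LSD1 (-1.06) and NUP98 (-1.06). In all 9 of the latter every library was below every input. Of all genes, 10.5% were depleted with IMP1, 9.79% with CHD4, 8.54% with PCAF, 6.88% with DNMT1, 6.71% with WDR5, 6.66% with LSD1 and 5.11% with NUP98. Its means with HNRNPH1 and PABP were 25.4 ± 9.29 and 0.0974 ± 0.112 FPKM (n = 3 each). With centred libraries, 6 of the 9 depleted calls of HOXB-AS2 and the HUR call (0.92) fell inside 2-fold, at -0.97 for CHD4, -0.92 for IMP1, -0.81 for WDR5, -0.74 for PCAF, -0.65 for LSD1 and -0.64 for NUP98. The LSD1 and NUP98 calls were also lost without input set 1 replicate 1, the input with the most HOXB-AS2 (-0.96 and -0.95), without LSD1 replicate 2 (-0.97) or without NUP98 replicate 3 (-0.99). Against the input set of NUP98 alone its call was lost too (-0.91). HOXB-AS2 shares no exonic base with another gene of the table.

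**Figure D5:**
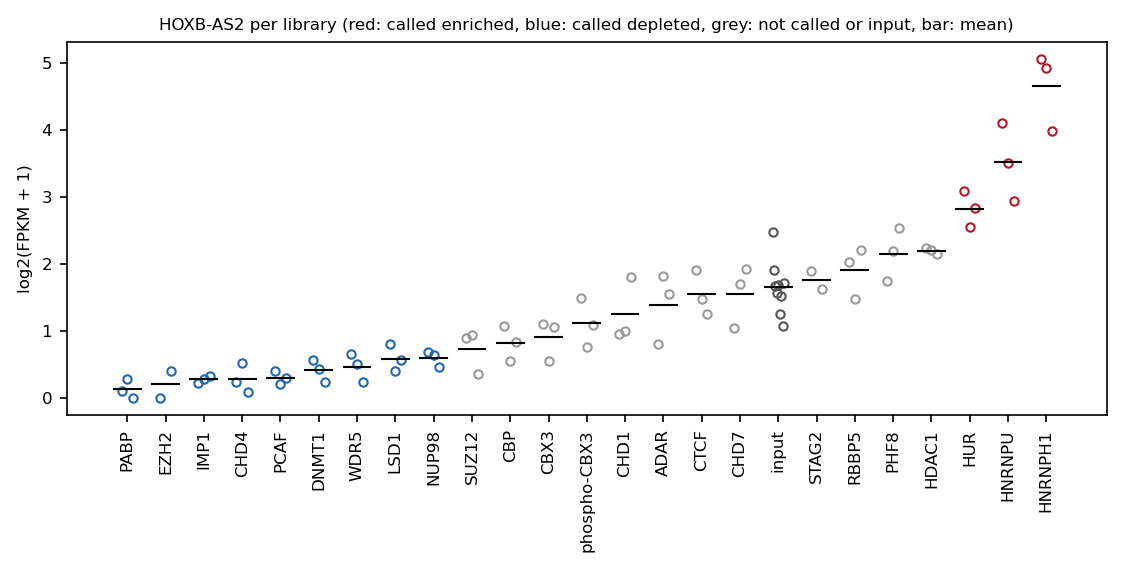
HOXB-AS2 per library, as log2(FPKM + 1), in the 24 fRIPs and input, ordered by group mean. Circles are libraries (red for fRIPs in which it was enriched, blue for depleted, grey for not called and input) and bars are means. The 9 depleted fRIPs lie below all 9 input libraries, as do SUZ12 and CBP, which were not called, and the enriched HNRNPH1, HNRNPU and HUR lie above them.

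The 19 tested members had few exons. Their leading isoforms had a median of 2 exons (range 2 to 3) and 1611 bases, against 3 exons and 1201 bases over all 24165 tested genes with a sequence, 7 exons and 2318 bases over the 13579 mRNA genes among them and 2 exons and 629 bases over the 5230 lncRNA genes. Their GC content was 55.1% and they held 16.1 runs of at least 3 G per kb at the median, against 47.8% and 11.5 per kb over all tested genes. Of the 19, 7 shared no exonic base with another gene of the table and 7 shared over 10%, among them HOXB-AS1 with 29.6% (HOXB2, HOXB3 and HOXB-AS3).

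The remaining 38 members were not tested. HOXA4 was listed at 0 in all 79 libraries. HOTAIR had an input mean of 0.0269 FPKM and no value above 0.441 FPKM (HDAC1 replicate 1), and HOTTIP was listed at 0 in every input library and reached at most 0.233 FPKM (STAG2 replicate 1). With EZH2, the highest value of an untested member was 0.597 FPKM and with SUZ12 0.477 FPKM, both in HOXC. HOTAIR was listed at 0 in both EZH2 libraries and in SUZ12 replicates 1 and 2 and at 0.0420 FPKM in replicate 3, and HOTTIP was listed at 0 in every EZH2, SUZ12 and WDR5 library. With WDR5, HOTAIR was at 0.107 FPKM in replicate 1 and listed at 0 in replicates 2 and 3. All of these HOTAIR values lay within its input range of 0 to 0.207 FPKM, and a difference from input was not detectable at this depth for either lncRNA. HOTAIRM1, with an input mean of 0.0493 FPKM, read 0 and 0.448 FPKM with EZH2 and at most 0.0966 FPKM with SUZ12.

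A single library had the highest summed level of these silent genes. In STAG2 replicate 1, 29 of the 38 untested members were above 0, and it had the highest value of all libraries for 22 of them. Their sum was 13.1 FPKM there, against a median of 0.723 and a maximum of 3.73 FPKM in the other 78 libraries. None of the 19 tested members was called with STAG2, with both of its libraries or without this one.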

How the data were processed

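The authors extracted RNA from K562 fRIP and lysate (3 input sets), sequenced it, aligned reads with TopHat to hg19 and quantified GENCODE genes and isoforms with Cuffdiff and Cuffnorm, with reads called by CASAVA 1.4 per the labels. FPKM of each library stand in the deposited tables, of genes and of isoforms. A further deposited table holds FPKM per group and the authors' fold changes, test statistics and p-values, of which only the group FPKM served, to match each protein to its input set (EZH2 to set 3, SUZ12 to set 1). Whether counting used strand is not given in the sources used here. Labels and the table number the second STAG2 library differently, so it carried no number.

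Analyses used Python 3.11.15 (numpy 2.4.6, pandas 2.3.3, matplotlib 3.10.9, scipy 1.17.1) and limma 3.58.1 in R 4.3.3. A single limma fit with an intensity trend on log2(FPKM + 1) covered 25442 genes (1 FPKM reached in 2 or more of 79 libraries), with a mean per protein and for input. P-values were adjusted by Benjamini-Hochberg over all genes within a comparison. Exact permutation tests were two-sided. On simulated data with 200 changed genes among 25442 the fit recovered 98.5% for EZH2 and 99.0% for SUZ12. Recovery of genes near the 2-fold limit or near 1 FPKM was not tested separately. Of 48453 genes, 46055 matched GENCODE 44 on hg19 by identifier. Alternatives were pseudocounts of 0.1 and 0.5, no filter, a mean of at least 0.5 FPKM, centred libraries, the matched input set, the protein's own libraries, a replicate block and each library left out. Replicate numbers were taken to pair libraries only for CHD1, NUP98, PCAF and WDR5 (every correlation of deviations over 0.1, from the data alone), and between EZH2 and SUZ12 libraries of the same number the correlations were -0.0454 and 0.0833.

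The members and gene lists were chosen with earlier results of these data known. Named one by one are members with an input mean of at least 1 FPKM, HOTAIR, HOTTIP and HOTAIRM1, members called with EZH2 or SUZ12 or between them, the highest and lowest called member of other fRIPs, and listed genes called with EZH2 or SUZ12, and further members named were chosen after their values were seen. Some listed genes are not reported here by name. Fragment numbers are estimates from FPKM and the length of the leading isoform in input, cover counting error only, and the lowest are the least precise.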

Additional observations from a re-analysis of the deposited data

Results flagged for a closer look

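In 13 members tested over the 9 input libraries, 2 had a library far from the others, where chance gives about 1 in 20. HOXB-AS1 was lowest in input set 2 replicate 3, at 3.08 FPKM against 6.53 to 9.24 FPKM in the other 8. HOXB-AS2 was highest in input set 1 replicate 1, at 4.56 FPKM against 1.10 to 2.75 FPKM. SUZ12 and EZH2 differed past the threshold of the direct test, which uses no input, in 5 members. The log2 differences (SUZ12 minus EZH2) were 1.71 for HOXB-AS1, -2.16 for HOXB-AS4, -1.90 for HOXB7, -2.52 for HOXB8 and -3.15 for HOXB9. Outside the tested members, 29 of 38 low HOX members were above 0 in STAG2 replicate 1, against a median of 8 and a maximum of 26 in the other 78 libraries, and their cause was not tested.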

How the results depend on the processing

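Members called enriched and depleted numbered 5 and 1 with EZH2, 1 and 1 with SUZ12 and 39 and 9 over the other 22 fRIPs, and between SUZ12 and EZH2 1 was higher and 4 lower. A pseudocount of 0.1 FPKM gave 2 depleted with EZH2, 2 enriched and 2 depleted with SUZ12, 3 higher with SUZ12 than EZH2, and 18 depleted over the other fRIPs, and one of 0.5 FPKM gave 2 enriched and 2 depleted with SUZ12. The matched input sets gave 2 depleted with SUZ12, and centred libraries 18 depleted over the other fRIPs. Leaving out 1 library gave 3 to 6 enriched and 1 depleted with EZH2, 0 to 2 enriched and 1 to 2 depleted with SUZ12, 1 higher and 4 to 5 lower between them, and 35 to 42 enriched and 6 to 10 depleted over the other fRIPs. The replicate block gave 4 and 1 with EZH2 (HOXC9 at 0.99) and left the other counts at 1 and 1, 1 and 4, and 39 and 9. Of the 61 called pairs of member and comparison none reversed under any alternative run. Calls lost numbered 18 with centring, 10 with the matched input sets, 1 with the block and none under both pseudocounts, no filter or the protein's own libraries. A mean of at least 0.5 FPKM left 60 to compare, and 17 pairs were lost without at least 1 library. The cause was not tested. Within input set 2, in a comparison added after the data were seen, the 4 paired proteins with and without the block gave the same calls. Gained were HOXB-AS4 for NUP98 (1.05) and HOXB8 (1.16) and HOXB-AS4 (1.09) for WDR5, kept was HOXB-AS2 for PCAF (-1.20) and WDR5 (-1.04), and lost was HOXB-AS2 for NUP98 (-0.91). Depth limits HOXB-AS2 with EZH2 and HOXB-AS4 with EZH2 and ADAR, which rest on few fragments.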
